A study of Mus musculus with 4 samples.

Results

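The genes described here encode 8 proteins of adherens and tight junctions: Cdh5, Cldn5, Esam, Pecam1, Tjp1, Ocln, Jam2 and F11r. They were taken by name from a list of junction genes, several of which are known targets of the transcription factor ERG, and all 8 are among the 20076 genes of the deposited matrix. They were followed in 2510 endothelial cells (ECs) and 217 epithelial cells of 9363 cells, with the other lung cells for reference. The study performed single-cell RNA-seq on whole lungs of 4 mice to ask how loss of endothelial ERG bears on the kinds of capillary ECs. In 2 mice, labelled WT, the Erg alleles were floxed (ERG fl/fl) and no Cre was present. The other 2, labelled ERG CKO, added to the same alleles CDH5-CreER(T), a Cre recombinase switched on by tamoxifen. Both groups therefore carried the floxed alleles, and the mice were on a C57/BL6 background per the methods. The mice received 0.5 mg of tamoxifen in each of 5 daily injections and were sampled 90 days after. The Cre is driven by the promoter of Cdh5, which is itself one of the 8 genes. The age of these 4 mice is not given in the sources used here.

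Endothelial cells are held together by adherens junctions, in which the cadherin encoded by Cdh5 (VE-cadherin) binds its like on the neighbouring cell and is tied to actin through catenins, and by tight junctions, in which claudins and other membrane proteins seal the gap between cells. Loosening of these contacts lets plasma leak into the tissue. In the lung the alveolar capillary holds general capillary (gCap) ECs and aerocytes (aCap ECs), the latter being large thin cells that face the alveolar epithelium. ERG is an ETS-family factor known to keep VE-cadherin and claudin 5 expressed in cultured endothelium.

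By role, Cdh5 is the endothelial cadherin and Pecam1 (CD31) is an immunoglobulin-like adhesion protein of the EC border that platelets and many leukocytes also carry. Cldn5 (claudin 5) is the main claudin of endothelium. Esam, Jam2 and F11r (JAM-A) are immunoglobulin-like adhesion proteins of tight junctions, and F11r is shared with epithelium. Ocln (occludin) is a membrane protein best known from tight junctions of epithelia, and Tjp1 (ZO-1) is the scaffold protein beneath the membrane in both tissues.

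On GRCm38.p6, the assembly of the mm10 build named in the submitters' processing notes, Cdh5 lies at chr8:104101613-104144504 on the plus strand and Pecam1 at chr11:106654213-106715281 on the minus strand. Cldn5 spans chr16:18776847-18778262 on the plus strand and Jam2 spans chr16:84774123-84826380 on the same strand. Esam lies at chr9:37528089-37538319 on the plus strand and F11r at chr1:171437561-171464593 on the plus strand. Tjp1 lies at chr7:65296165-65527850 and Ocln at chr13:100496504-100552718, both on the minus strand. The annotation used here showed no exon of another gene overlapping an exon of any of the 8 genes. RefSeq promoter windows of the same assembly, from 250 bases before to 50 after an annotated start of a gene, were held for Cldn5, F11r, Tjp1 and Ocln, which made 5 windows for 4 of the 8 genes. The start used for the Tjp1 window (chr7:65371195-65371494) lay far inside the gene span given above, not at its outer end. That of 1 Ocln window (chr13:100552449-100552748) lay just inside the span of Ocln. ETS factors such as ERG bind DNA around a GGAA core, so these windows were searched on both strands for CAGGAAG and CCGGAAG. None of the 5 windows held either, and 13.3% and 8.86% of all 32851 promoter windows held the first and the second (20.9% held at least 1 of them). The bare core GGAA, whose letters lie within both longer forms and which was added after these matches were seen, occurred in the 250 bases before the start 3 times in F11r, 3 times in Tjp1, and 2 times and 1 time in the windows of Ocln, and 0 times in Cldn5. It was present before the start of 93.5% of all promoters, so its presence marked no gene out. The stretches of Cldn5 (chr16:18776597-18776846, plus strand) and F11r (chr1:171437311-171437560, plus strand) are printed because a called and an uncalled gene of the comparison in aerocytes can be read side by side. Capitals mark GGAA or, for the other strand, TTCC.
Cldn5: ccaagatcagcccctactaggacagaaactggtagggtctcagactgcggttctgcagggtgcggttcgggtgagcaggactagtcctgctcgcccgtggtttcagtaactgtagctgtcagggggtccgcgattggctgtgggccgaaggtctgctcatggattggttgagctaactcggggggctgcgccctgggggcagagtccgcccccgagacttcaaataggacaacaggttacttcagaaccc
F11r: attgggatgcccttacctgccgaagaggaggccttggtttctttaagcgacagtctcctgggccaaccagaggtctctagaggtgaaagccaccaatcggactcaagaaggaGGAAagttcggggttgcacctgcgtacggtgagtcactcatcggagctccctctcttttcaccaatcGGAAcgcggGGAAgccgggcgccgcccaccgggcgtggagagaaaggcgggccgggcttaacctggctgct

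The 4 libraries held 1852 to 3097 cells and 11263911 to 18646776 UMIs (unique molecular identifiers, each marking 1 captured RNA molecule), with medians of 4611 to 4899 UMIs per cell. Each library came from 1 mouse, so all tests compared summed counts of 2 WT with 2 ERG CKO mice, and p-values measure the spread between these mice. Same-numbered replicates of both groups shared the expression of sex-linked genes, which was therefore balanced between groups. Of the barcodes, 7 occurred in more than 1 library. Levels are given as CPM, the UMIs of a gene in a class divided by all UMIs of that class and scaled to a common total, and follow the order WT replicate 1, WT replicate 2, ERG CKO replicate 1, ERG CKO replicate 2 wherever 4 values are listed. An exact permutation test of a single value over 2 against 2 mice cannot go below p = 0.333, so genes were tested with edgeR's quasi-likelihood fit over all genes, and a gene was called where its p, adjusted by Benjamini and Hochberg's method, did not exceed 0.05.

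Erg itself, the targeted gene, was counted at 85.2, 87.5, 105 and 83.6 CPM in ECs (232, 278, 479 and 222 UMIs). The groups overlapped, and the log2 fold change (ERG CKO over WT) was 0.10 with a standard error (SE) of 0.15 and an edgeR adjusted p of 0.836. T cells, which should lack it, held at most 1.69 CPM. The deposited counts are summed over the gene, so they cannot show whether floxed exons are missing, and they do not separate the groups by this gene. Directions below are therefore between libraries as labelled.

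ECs were named from 12 EC markers and divided into gCap ECs (438, 508, 442 and 321 cells), aCap ECs (43, 72, 107 and 101 cells), vein ECs (31, 46, 67 and 20 cells), artery ECs (16, 17, 21 and 13 cells) and lymphatic ECs (7, 7, 8 and 3 cells). ECs of subclusters without a subtype name were 48, 47, 88 and 39 cells. Levels across these subtypes are descriptions with no test, because the cells were clustered on the same data, although the 8 genes were kept out of the clustering genes. Outside the EC class, low-depth clusters of 564 and 304 cells with EC markers among their genes stayed unnamed and were not counted as ECs.

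Each of the 8 genes was detected in ECs of all 4 libraries, and the order of EC subtypes differed from gene to gene. Cdh5 ran from a lowest of 1450 over a median of 1929 to a highest of 2568 CPM in aCap ECs and from 1598 over 1885 to 1994 CPM in gCap ECs. These ranges overlapped, as did those of vein ECs (948, 1051 and 1175 CPM) and artery ECs (658, 989 and 1073 CPM), and both capillary types lay above both larger vessel types in every library. Lymphatic ECs were lower still for Cdh5 at 275, 436 and 460 CPM, from 3 to 8 cells a library. T cells gave the background of free RNA for this gene, at 2.80 to 13.5 CPM.

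Pecam1 was ordered otherwise, with artery ECs at 1572, 1816 and 1997 CPM (lowest, median and highest library), aCap ECs at 1447, 1580 and 1965, gCap ECs at 1335, 1352 and 1466 and vein ECs at 1127, 1146 and 1450. Neighbours in this order overlapped. Cldn5 was highest by median in aCap ECs at 3898, 5735 and 7438 CPM, ahead of gCap ECs at 4362, 4798 and 5056 CPM, with artery ECs at 2101, 3491 and 3964 CPM and vein ECs at 1922, 2496 and 3174 CPM. Lymphatic ECs also held Cldn5, at 4714, 2107, 4887 and 5822 CPM. The value of WT replicate 2 lay below the range of both blood capillary types, and the others lay within that of aCap ECs. The same few lymphatic cells held 0, 1, 5 and 1 UMIs of Esam and no UMI of Jam2 or Ocln.

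Jam2 separated the vessel types most widely. Artery ECs held 555, 330, 494 and 270 CPM of Jam2 and vein ECs held 370, 288, 226 and 231 CPM. In gCap ECs it stood at 119, 122, 102 and 91.1 CPM, and in aCap ECs at 24.6, 15.0, 21.9 and 23.3 CPM. Artery and vein overlapped, whereas gCap ECs lay below vein ECs and aCap ECs below gCap ECs in all 4 libraries with no overlap of their ranges. Esam was flatter across blood vessels, with medians of 875 CPM in gCap ECs, 783 in aCap ECs, 717 in vein ECs and 659 in artery ECs and overlapping ranges throughout. These medians pool both groups. In WT the aCap ECs (1035 and 1119 CPM) lay above the gCap ECs (906 and 911 CPM). In ERG CKO the aCap ECs (531 and 490 CPM) lay below the gCap ECs (844 and 763 CPM).

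Tjp1, the scaffold, had medians of 455 CPM in gCap ECs, 424 in aCap ECs, 325 in vein ECs and 287 in artery ECs, and its capillary values overlapped. Ocln was low in all subtypes, at 46.7 to 105 CPM in aCap ECs, 42.1 to 63.9 CPM in gCap ECs, 41 to 52 CPM in artery ECs and 27.2 to 56.0 CPM in vein ECs. F11r lay between 92.4 and 132 CPM in aCap ECs, between 78.1 and 98.6 CPM in gCap ECs and between 22.3 and 74.9 CPM in vein ECs. For Ocln and F11r the counts behind a library of vein, artery or lymphatic ECs were few, and no order among these subtypes was read from them.

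**Figure D1:**
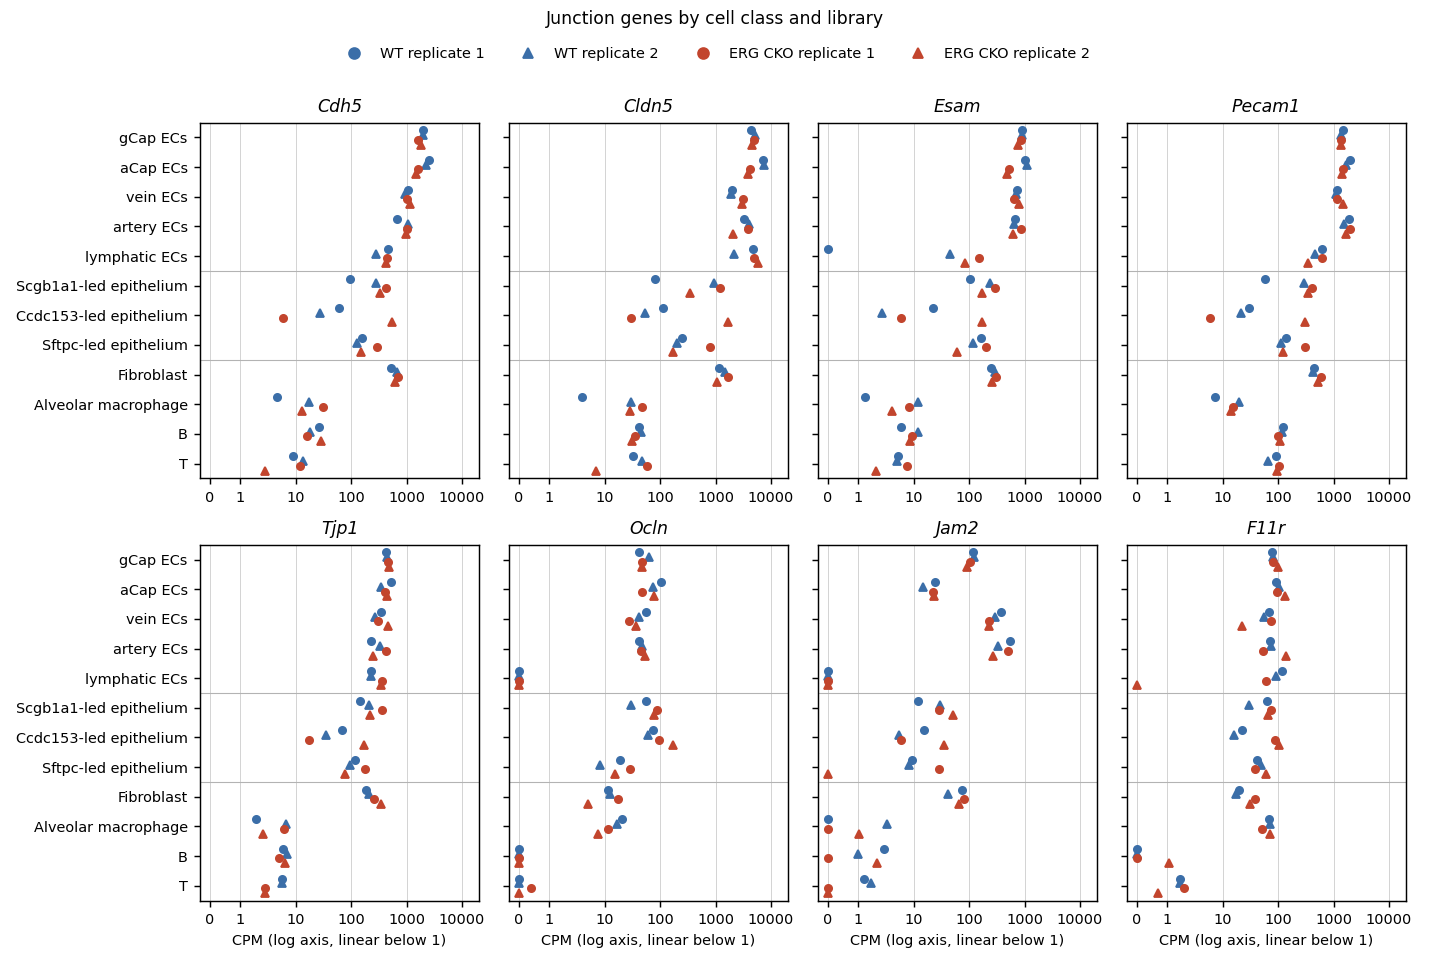
Levels of the 8 genes (CPM on a log axis that is linear below 1) in EC subtypes, epithelium and other lung cells, with 1 point per library. Cdh5, Cldn5 and Esam were high in blood vessel ECs and near background in T cells (Cdh5 2.80 to 13.5 CPM), Jam2 was lowest of the blood vessel subtypes in aCap ECs (15.0 to 24.6 CPM), and F11r and Ocln were also present in epithelium and alveolar macrophages.

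The first comparison asked whether the junction genes differed between WT and ERG CKO in ECs as a whole. None of the 8 was called, against 2.98% of the 10700 genes tested, and 3 of the 8 had an unadjusted p under 0.05 (DESeq2 called 0 of the 8). The median log2 fold change of the 8 was -0.23, beside 0.01 over all genes tested, with 6 below 0 and 2 above. The 12 EC markers had a median of -0.40 in the same ECs, with 1 called lower and 1 higher. Of 8 gCap markers, 6 were called lower and 0 higher. The part of these marker shifts in the values of the junction genes was not tested.

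Cdh5 stood at 1899, 1837, 1459 and 1621 CPM in ECs, a log2 fold change of -0.32 (SE 0.12, edgeR adjusted p = 0.242). Esam stood at 878, 911, 728 and 664 CPM, a log2 fold change of -0.40 (SE 0.13, edgeR adjusted p = 0.167). For both genes the ERG CKO libraries lay below both WT libraries, which 19.3% of all genes tested also did, and neither passed the test. Jam2 was likewise below in both ERG CKO libraries, at 138, 123, 112 and 85.1 CPM, with a log2 fold change of -0.44 (SE 0.17, edgeR adjusted p = 0.239). With the replicate number as a block, which also separates the sexes, Esam and Jam2 were called (edgeR adjusted p = 0.0343 and 0.0283). Jam2 was called without ERG CKO replicate 1 (edgeR adjusted p = 0.0341). Erythroid markers moved with the genotype in these ECs, as 5 of them summed to 35.2, 50.3, 1554 and 2232 CPM, none at 0, and their part in these values was not tested.

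Cldn5 stood at 4419, 5049, 4416 and 4157 CPM and Pecam1 at 1507, 1367, 1327 and 1356 CPM, with log2 fold changes of -0.18 (SE 0.12) and -0.14 (SE 0.12). The lower WT and the higher ERG CKO library of Cldn5 lay almost together, so its groups barely parted. Ocln gave -0.29 (SE 0.16), F11r 0.13 (SE 0.15) and Tjp1 0.02 (SE 0.12) on the log2 scale. Tjp1 was at 422, 405, 424 and 436 CPM, with both ERG CKO libraries just above WT replicate 1.

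In gCap ECs, the largest EC subtype, none of the 8 was called, against 3.61% of 9830 genes, with 1 of 8 at an unadjusted p under 0.05 and 0 called by DESeq2. Cdh5 stood at 1994, 1937, 1598 and 1834 CPM there (log2 fold change -0.24, SE 0.12, edgeR adjusted p = 0.423) and Cldn5 at 4362, 5056, 4998 and 4598 CPM (-0.01, SE 0.12). Esam was at 906, 911, 844 and 763 CPM, a log2 fold change of -0.22 with SE 0.13. The Cdh5 and Esam groups did not overlap, with ERG CKO below WT as for 18.4% of all genes tested in gCap ECs, whereas those of Cldn5 did. Jam2 had the lowest adjusted p of the 8, 0.286 by edgeR, at a log2 fold change of -0.35 (SE 0.14). Here markers of gCap ECs themselves moved with the genotype, since all 8 of the marker list were below WT in both ERG CKO libraries, and their summed level was 7592 and 7541 CPM in WT and 4998 and 5378 CPM in ERG CKO. Erythroid markers were higher, with the 5 summing to 36.0 and 48.6 CPM in WT and 2880 and 3985 CPM in ERG CKO gCap ECs. The part of either list in the values of the junction genes was not tested.

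Among aCap ECs, 3 of the 8 genes were lower in ERG CKO and the other 5 were not called. Cldn5, the main endothelial claudin, fell 1.82-fold, Esam fell 2.14-fold and Cdh5 fell 1.62-fold. In this subtype 10.6% of 7066 genes were called and 5.63% were called lower, and DESeq2 also called 3 of the 8. The median log2 fold change was -0.42 over the 8 genes and 0.02 over all genes tested.

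Cldn5 was at 7225 and 7438 CPM in the WT aCap ECs and at 4245 and 3898 CPM in the ERG CKO aCap ECs. As means these are 7331 ± 151 and 4071 ± 246 CPM (SD, n = 2 mice each), a log2 fold change of -0.87 (SE 0.16, edgeR adjusted p = 0.000827). Both ERG CKO libraries lay below both WT libraries, which 22.6% of all genes tested also did, and the gap was far wider than that between replicates of a group. In WT the aCap ECs were richer in Cldn5 than the gCap ECs of the same mouse, and in ERG CKO they were poorer.

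Esam was at 1035 and 1119 CPM in WT and at 531 and 490 CPM in ERG CKO aCap ECs. The means were 1077 ± 59.8 and 511 ± 28.9 CPM (SD, n = 2 mice each), and the log2 fold change was -1.10 (SE 0.17, edgeR adjusted p = 0.000165). Esam had the largest change of the 8 genes in aCap ECs. After each cell was thinned to 1000 UMIs, Esam was found in 60.5% and 70.8% of WT aCap ECs and in 38.3% and 31.7% of ERG CKO aCap ECs. The 95% Clopper-Pearson intervals, which cover counting error only, were 44.4% to 75.0%, 58.9% to 81.0%, 29.1% to 48.2% and 22.8% to 41.7%. Without thinning the shares were 100%, 98.6%, 90.7% and 85.1%, at median depths of 6992, 7467.5, 6032 and 5673 UMIs. T cells gave a thinned Esam share of at most 0.959%, at median depths of 5873 to 6385 UMIs.

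Cdh5 was at 2568 and 2276 CPM in WT and at 1581 and 1450 CPM in ERG CKO aCap ECs. The means were 2422 ± 207 and 1516 ± 92.5 CPM (SD, n = 2 mice each), and the log2 fold change was -0.69 (SE 0.16, edgeR adjusted p = 0.00625). After thinning it was found in 86.0% and 90.3% of WT aCap ECs and in 76.6% and 72.3% of those of ERG CKO, beside at most 1.2% of T cells. No single cell carried these 3 genes, as the richest aCap EC of a library held at most 8.39% of the UMIs of Cdh5, 4.70% of those of Cldn5 and 5.06% of those of Esam. All 3 genes were called whichever library was left out.

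The other 5 genes of the list gave small or uncertain differences in aCap ECs. Pecam1 was at 1965, 1658, 1502 and 1447 CPM, a log2 fold change of -0.31 (SE 0.16, edgeR adjusted p = 0.282), with both ERG CKO libraries the lower. Tjp1 at 520, 348, 413 and 435 CPM and F11r at 92.4, 103, 94.8 and 132 CPM overlapped between groups. Ocln was at 105, 73.0, 46.7 and 76.7 CPM and Jam2 at 24.6, 15.0, 21.9 and 23.3 CPM. Their log2 fold changes of -0.52 (SE 0.30) and 0.24 (SE 0.47) had wider errors than those of the called genes.

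**Figure D2:**
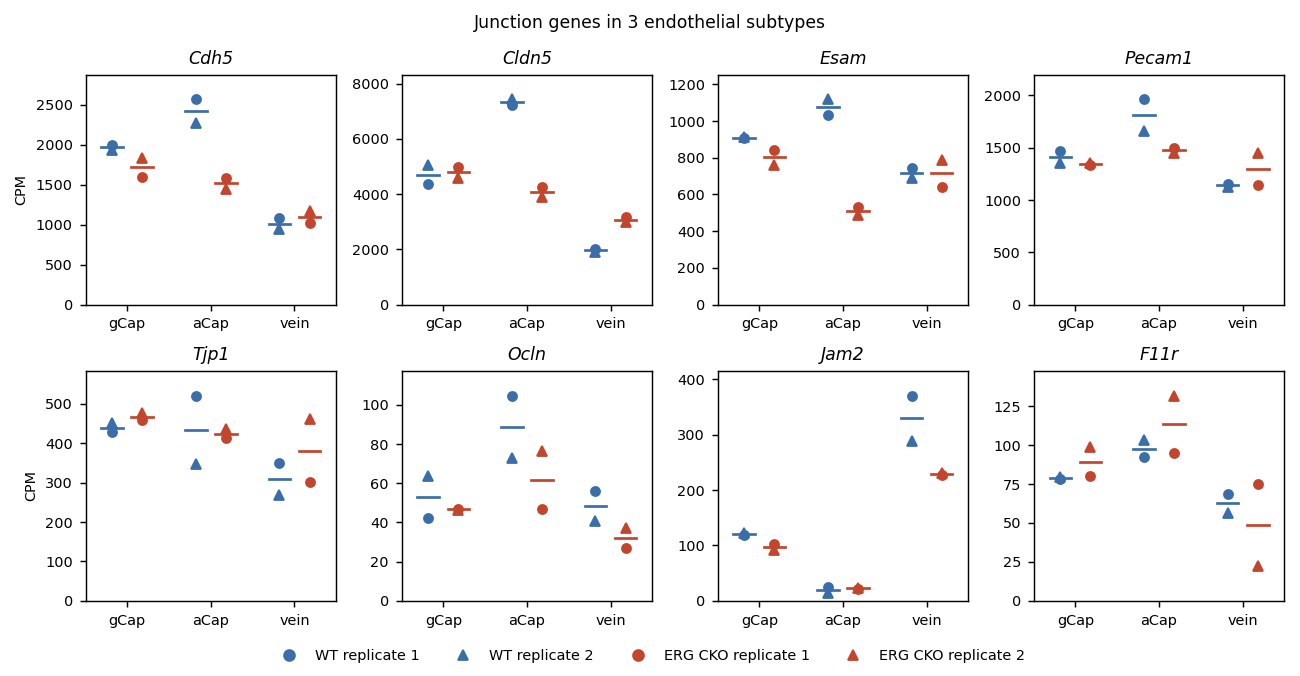
CPM (linear axes) of each of the 8 genes in gCap ECs, aCap ECs and vein ECs, with 1 point per library and a bar at the mean of the 2 libraries of a group. In aCap ECs both ERG CKO points of Cldn5 (4245 and 3898), Esam (531 and 490) and Cdh5 (1581 and 1450) lie below both WT points.

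The aCap ECs of the ERG CKO libraries also differed from those of WT in the markers that define the subtype. Of 10 aCap markers, 9 were called lower and 1 was called higher, with a median log2 fold change of -1.08, and their summed level was 14572 and 14719 CPM in WT and 5162 and 6725 CPM in ERG CKO. The gCap ECs of the same libraries held 721 and 600 CPM of these markers in WT and 836 and 976 CPM in ERG CKO. The ERG CKO aCap ECs thus remained well above them. Within gCap ECs, 5 of the 8 aCap markers tested were called higher in ERG CKO and 0 lower, with a median log2 fold change of 1.42. Car4, a carbonic anhydrase of aerocytes, was at 3304, 3642, 1500 and 1489 CPM in aCap ECs. Of the 12 EC markers, 4 were called lower and 1 higher, with sums of 15912, 15688, 9572 and 10848 CPM. Epithelial markers summed to 2260 and 2579 CPM in WT and 1247 and 1024 CPM in ERG CKO aCap ECs, and platelet markers to 73.9, 153, 362 and 173 CPM. Erythroid markers were low in aCap ECs of both groups, at 49.3, 46.8, 114 and 20.005 CPM. The part of these shifts in the changes of Cldn5, Esam and Cdh5 was not tested.

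The subtype name of these cells also rested on the alignment of libraries before clustering. Without alignment, 598 ECs formed a cluster that held 332 and 259 cells of the ERG CKO libraries and 1 and 6 of the WT libraries. It took in 103 of 107 and 96 of 101 aCap ECs of ERG CKO (96.3% and 95.05%) and none of the 43 and 72 of WT, and it also took in 38.2% and 37.4% of the ERG CKO gCap ECs. Too few ERG CKO aCap ECs then remained for a test. Within that cluster the 2 ERG CKO libraries held 3854 and 3923 CPM of Cldn5, 603 and 563 CPM of Esam, and 1581 and 1524 CPM of Cdh5. Jam2 was at 32.3 and 31.6 CPM there.

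The gCap ECs of ERG CKO could be divided along the same line, as a description. Those inside the cluster held 4061 and 4060 CPM of Cldn5, and those outside it held 5647 and 5013 CPM. Esam was at 702 and 644 CPM inside and 943 and 854 CPM outside. Jam2 was at 38.7 and 37.2 CPM inside and 146 and 133 CPM outside. WT gCap ECs outside that cluster held 4372 and 5098 CPM of Cldn5, 904 and 916 CPM of Esam and 119 and 123 CPM of Jam2. For all 3 genes the ERG CKO gCap ECs inside the cluster lay below both WT libraries, and those outside it did not lie below them in both ERG CKO libraries. Cdh5 was at 1676 and 1574 CPM inside and 1545 and 2034 CPM outside, beside 1997 and 1942 CPM in the WT gCap ECs. Inside it lay below both WT libraries as well, and in ERG CKO replicate 1 the cells outside were no higher than those inside. When the cluster was left out, ECs had 37 genes called, gCap ECs had 6, and none of the 8 genes was among them, with Jam2 then at a log2 fold change of 0.28 (SE 0.15) in ECs.

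**Figure D3:**
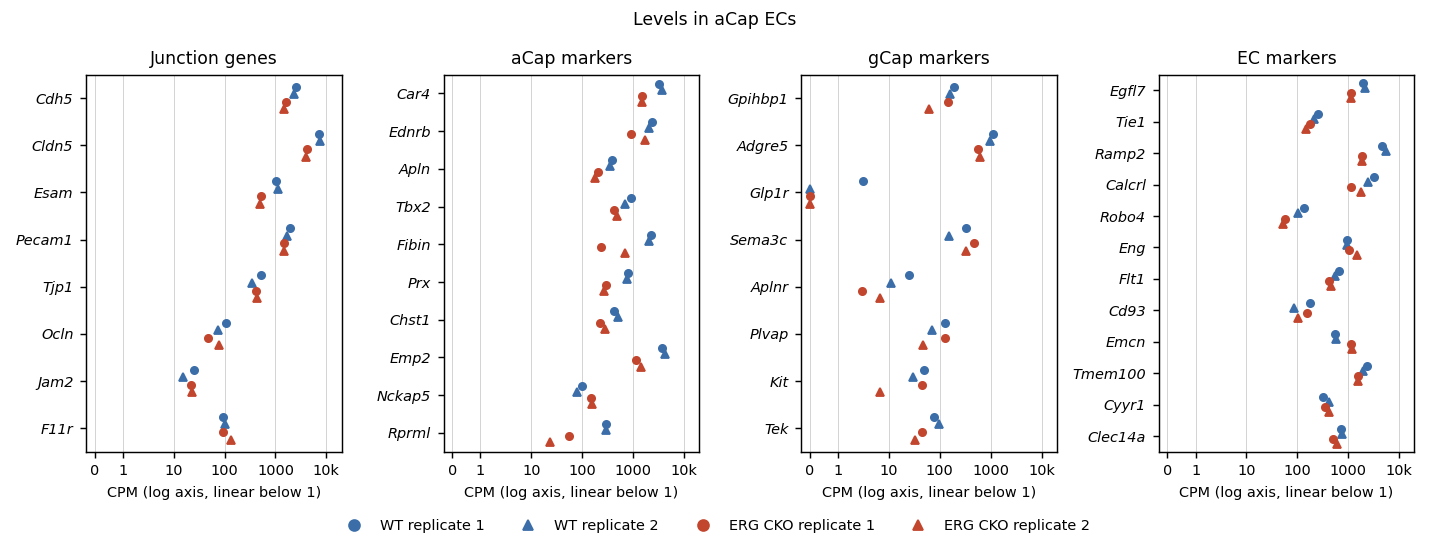
Levels in aCap ECs (CPM on a log axis that is linear below 1) of the 8 junction genes, 10 aCap, 8 gCap and 12 EC markers, with 1 point per library. Of the aCap markers, 9 of 10 lay lower in both ERG CKO libraries, as did Cdh5, Cldn5 and Esam, and the aCap markers summed to 14572 and 14719 CPM in WT and 5162 and 6725 CPM in ERG CKO.

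Whether the genotype difference itself differed between aCap and gCap ECs was tested as an interaction in edgeR with the library as a block. Of the 8 genes, 3 were called, all with a lower value in aCap ECs, against 7.03% of 9486 genes and 3.98% called in that direction. The difference of the log2 fold changes was -0.90 for Esam (SE 0.15, edgeR adjusted p = 3.75e-05), -0.88 for Cldn5 (SE 0.12, edgeR adjusted p = 8.29e-07) and -0.47 for Cdh5 (SE 0.14, edgeR adjusted p = 0.0267). The Cdh5 difference was no longer called without WT replicate 1 (-0.42, edgeR adjusted p = 0.109) or without ERG CKO replicate 2 (-0.30, edgeR adjusted p = 0.546). Pecam1 at -0.22 and Jam2 at 0.58 were not called.

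In vein ECs none of the 8 was called, beside 0.188% of 4781 genes, with 2 of the 8 at an unadjusted p under 0.05 and 0 called by DESeq2. Cldn5 was higher in both ERG CKO libraries, at 2010, 1922, 3174 and 2981 CPM, a log2 fold change of 0.57 (SE 0.24, edgeR adjusted p = 0.497). Without ERG CKO replicate 2, the library with 20 vein ECs, it was called at 0.65 (edgeR adjusted p = 0.0167). Jam2 was at 370, 288, 226 and 231 CPM, a log2 fold change of -0.59 (SE 0.25, edgeR adjusted p = 0.532). The groups of Cldn5 and Jam2 did not overlap, as for 38.6% of genes tested in vein ECs. Cdh5 at 1076, 948, 1025 and 1175 CPM, Esam at 745, 689, 642 and 788 CPM and Pecam1 at 1154, 1127, 1139 and 1450 CPM overlapped between groups. Artery and lymphatic ECs were too few for a test.

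**Figure D4:**
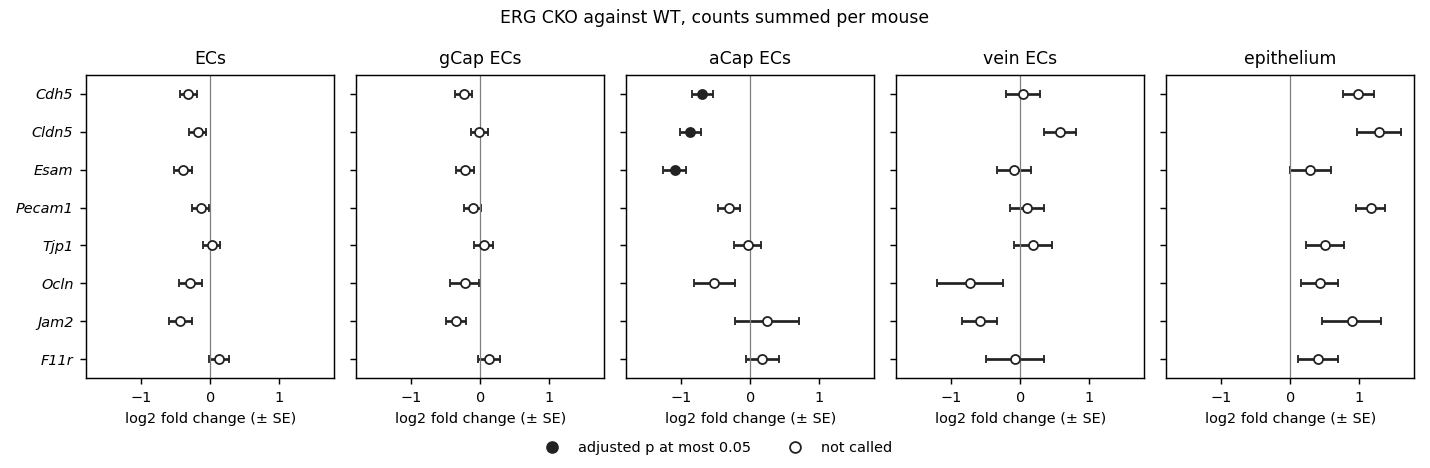
Log2 fold change (ERG CKO over WT) of each of the 8 genes with its SE, by cell class, with calls at an edgeR adjusted p of at most 0.05 filled. The called values are those of Cldn5 (-0.87), Esam (-1.10) and Cdh5 (-0.69) in aCap ECs.

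The epithelium was the other tissue of interest, since Ocln, Tjp1 and F11r serve its junctions. The class held 57, 30, 62 and 68 cells in 3 clusters led by Sftpc, a surfactant gene of alveolar type 2 cells (21, 14, 9 and 8 cells), by Scgb1a1, a club cell gene, with Ager, an alveolar type 1 gene (27, 9, 46 and 58 cells), and by Ccdc153, a gene of ciliated cells (9, 7, 7 and 2 cells). The mix and depth of these cells differed between groups, with medians of 18045 and 20738.5 UMIs per cell in WT and 2370 and 726.5 UMIs in ERG CKO. Their part in the values below was not tested.

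None of the 8 genes was called in epithelium by edgeR, where 0% of 7608 genes were called (623 genes had an unadjusted p under 0.05, and DESeq2 called 23 genes but none of the 8). All 8 had a log2 fold change above 0, with a median of 0.70 beside -0.02 over all genes tested, and 3 had an unadjusted p under 0.05. Ocln was at 40.5, 33.4, 69.0 and 52.8 CPM (log2 fold change 0.42, SE 0.27, edgeR adjusted p = 0.725) and F11r at 47.9, 32.2, 65.8 and 66.0 CPM (0.40, SE 0.29, edgeR adjusted p = 0.775). Both were higher in the 2 ERG CKO libraries, with no overlap, as 46.1% of genes tested did not overlap in one direction or the other. By cluster, Ocln was highest in the Ccdc153-led cells, at 75.0, 59.4, 93.8 and 172 CPM, and lowest in the Sftpc-led cells, at 19.0, 8.09, 28.6 and 15.3 CPM. The last value of the Ccdc153-led cells came from 5 UMIs.

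The endothelial genes gave larger values in epithelium, without being called in the main setting. Of 13 alternatives, Cldn5 was called in 2 and Pecam1 in 1. Cldn5 was at 164, 194, 741 and 351 CPM (log2 fold change 1.29, SE 0.33, edgeR adjusted p = 0.334), Pecam1 at 92.9, 85.4, 265 and 227 CPM (1.17, SE 0.21, edgeR adjusted p = 0.215) and Cdh5 at 122, 94.0, 270 and 253 CPM (0.98, SE 0.23, edgeR adjusted p = 0.3). A single epithelial cell held 25% to 36.8% of the Cdh5 UMIs and 29.0% to 36.1% of the Cldn5 UMIs of a library. EC markers were higher as well. The 12 of them summed to 928 and 1028 CPM in WT epithelium and 2002 and 1990 CPM in ERG CKO epithelium, and the median marker stood at 5.76%, 5.39%, 16.4% and 13.2% of its level in ECs of the same library. On that scale Cdh5 was at 6.40%, 5.12%, 18.5% and 15.6%, Pecam1 at 6.17%, 6.24%, 19.9% and 16.7% and Cldn5 at 3.71%, 3.85%, 16.8% and 8.44%, in each case near the EC markers. Ocln was at 81.1%, 55.3%, 164% and 102%, F11r at 60.6%, 40.2%, 82.9% and 65.4% and Tjp1 at 28.6%, 19.0%, 48.4% and 32.1% of the EC level. These lay above the highest EC marker (8.13%, 13.1%, 24.8% and 22.0%) in all 4 libraries. Esam at 14.0%, 8.29%, 25.5% and 17.1% and Jam2 at 7.98%, 7.04%, 20.1% and 27.9% lay above the median marker in all 4 libraries, as did Pecam1. None of these last genes lay above the highest marker in every library.

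The genotype difference in epithelium was also set against that in ECs as an interaction. Here 3 of the 8 were called, all higher in epithelium, against 1.67% of 11554 genes and 0.995% in that direction. The differences of log2 fold changes were 1.43 for Cldn5 (SE 0.34, edgeR adjusted p = 0.0321), 1.33 for Cdh5 (SE 0.32, edgeR adjusted p = 0.0338) and 1.32 for Pecam1 (SE 0.32, edgeR adjusted p = 0.0324). None of the 3 was called without WT replicate 1 (edgeR adjusted p = 0.221 to 0.418) or without WT replicate 2 (edgeR adjusted p = 0.341 to 0.532). Without cells called doublets, Cldn5 alone was called (edgeR adjusted p = 0.0437) and Cdh5 and Pecam1 were not (edgeR adjusted p = 0.0529 for both).

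Outside ECs and epithelium, several of the genes stood apart from the EC markers. Pecam1 was found in T cells at 90.2, 66.5, 104 and 93.7 CPM and in B cells at 121, 118, 99.2 and 109 CPM, which was 4.86% to 7.82% of the EC level in T cells and 7.48% to 8.66% in B cells. The median EC marker stood at 0.26% to 1.2% in T cells and 1.08% to 1.79% in B cells, so these lymphocytes held Pecam1 above the background of free endothelial RNA. In non-classical monocytes Pecam1 was at 59.2, 107, 390 and 110 CPM, and ERG CKO replicate 1 stood above the other 3 libraries. Its 505 UMIs were spread over many cells, the richest holding 2.57% of them.

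F11r and Ocln were also present in alveolar macrophages. F11r was at 68.8, 69.8, 50.1 and 70.3 CPM and Ocln at 20.8, 16.5, 11.5 and 7.58 CPM, which were 63.1% to 87.4% and 14.7% to 41.6% of the EC level, with the median EC marker at 0.25% to 1.53% and the highest of the 12 at 42.2% to 52.1%. F11r, carried by platelets as JAM-A, was at 85.5, 75.8, 52.8 and 96.5 CPM in the platelet class, from 7 to 20 UMIs a library. The EC markers were also high in that class, at 35.7% to 57.5% of the EC level by median. In fibroblasts Tjp1 was at 186, 206, 260 and 345 CPM and Jam2 at 74.9, 41.7, 82.2 and 65.9 CPM. For both the share of the EC level lay above that of the median EC marker (31.8%, 32.9%, 46.9% and 40.4%) in each library. Tjp1 also lay above the highest marker (36.9%, 44.9%, 58.4% and 50.8%) in each library. Jam2 did so except in WT replicate 2, where it stood at 33.9%, from 17 UMIs, within the range of the markers.

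**Figure D5:**
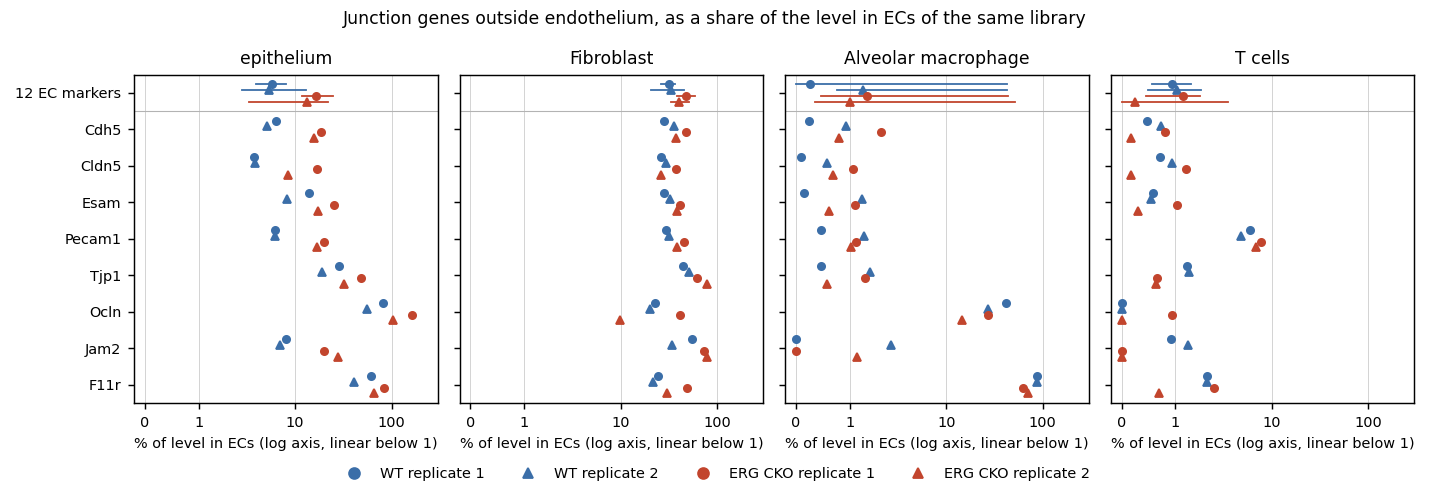
Level of each gene outside ECs as a percent of its level in ECs of the same library (log axis, linear below 1), in epithelium, fibroblasts, alveolar macrophages and T cells, with 1 point per library and, in the top line, the median and range of the 12 EC markers. Cdh5, Cldn5 and Pecam1 lie near the EC markers in epithelium (median marker 5.39% to 16.4%, highest 8.13% to 24.8%). Ocln and F11r lie above the highest marker in epithelium and above the median marker in alveolar macrophages.

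The partners of these junctions were read from 4 lists with 61 genes, of which 60 were matched in the matrix. In ECs 47 of them could be tested and 2 were called higher and 1 lower, where 2.98% of all genes tested were called. In gCap ECs 3 were higher and 1 lower of 44, beside 3.61% of all genes called. In aCap ECs 6 were higher and 4 lower of 39, beside 10.6% of all genes called. None was called of 34 in vein ECs (0.188% of all genes) or of 51 in epithelium (0%).

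Among adherens junction partners, none of 11 was called in ECs and 1 of 10 in gCap ECs, where Cdh2 (N-cadherin) was at 0.562, 1.53, 10.7 and 7.43 CPM (log2 fold change 3.01, SE 0.59, edgeR adjusted p = 0.0240). Its WT values were near the floor. It passed the count filter only through the ERG CKO libraries, so the size of this fold is uncertain. In aCap ECs 2 of 9 rose and 1 fell. Ctnnb1 (beta-catenin), which ties cadherins to alpha-catenin, was at 114 and 137 CPM in WT and 233 and 255 CPM in ERG CKO (0.92, edgeR adjusted p = 0.00394). Jup (plakoglobin), which takes the same place in the complex, was at 367, 343, 572 and 594 CPM (0.70, edgeR adjusted p = 0.00991). Ctnnd1 (p120-catenin), which keeps VE-cadherin at the membrane, was at 256, 273, 191 and 137 CPM (-0.71, edgeR adjusted p = 0.0311). The called catenins thus moved in both directions while Cdh5 fell in the same cells, and 6 of the 9 partners tested were not called. Jup, Ctnnd1 and Amotl1 are named here after their values were seen.

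Among tight junction partners, the clearest was Cldn3, a claudin known mainly from epithelia. In aCap ECs it had 0, 1, 49 and 71 UMIs (0, 1.87, 71.5 and 118 CPM), found in 0%, 1.39%, 20.6% and 31.7% of cells. The summed ratio was 80.2 (95% counting interval 14.1 to 3194), and the edgeR adjusted p was 5.89e-06. In gCap ECs the counts were 0, 2, 4 and 3 UMIs, and T cells held at most 0.70 CPM. Epithelium, where Cldn3 is known to be expressed, held 427, 501, 574 and 380 CPM of Cldn3 with no called difference (edgeR adjusted p = 0.826). The part of epithelial RNA in the Cldn3 values of aCap ECs was not tested. Over all ECs Cldn3 was called at a log2 fold change of 4.47 (SE 0.66, edgeR adjusted p = 0.0187). Cgnl1 (paracingulin) at 2.47 and Amotl1 (angiomotin-like 1) at 0.93 also rose in aCap ECs (edgeR adjusted p = 0.00389 and 0.0163). Thus 3 of 11 were higher and none was lower, in a subtype where 10.6% of all genes tested were called. Cldn3 and Cgnl1 (12.3, 5.62, 59.8 and 33.3 CPM) passed the count filter only through the ERG CKO libraries. Such genes can hardly come out lower, so no direction of the list is read from this count. Marveld1 fell in ECs, at 155, 150, 94.2 and 71.1 CPM (-0.90, edgeR adjusted p = 0.0305), and in gCap ECs (-0.87, edgeR adjusted p = 0.0141).

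Among the other border adhesion genes, Pvrl2 (nectin 2) rose in ECs, at 7.34, 8.81, 30.8 and 22.2 CPM (1.69, edgeR adjusted p = 0.0234), and in gCap ECs (2.38, edgeR adjusted p = 0.00366), where Pvrl3 (nectin 3) rose as well (0.91, edgeR adjusted p = 0.0202). In aCap ECs Icam2, an adhesion protein of resting endothelium, was at 2768, 3098, 1589 and 1742 CPM (-0.84, edgeR adjusted p = 0.00138), and Pvr was higher (1.49, edgeR adjusted p = 0.0466). Of the regulators that act through the small GTPase Rap1 or the CCM proteins, none of 13 was called in ECs or in gCap ECs and 2 of 13 fell in aCap ECs, beside 2.98% and 3.61% of all genes called in ECs and gCap ECs and 5.63% called lower in aCap ECs. These were Rasip1, an effector of Rap1, at 462, 505, 312 and 192 CPM (-0.96, edgeR adjusted p = 0.00491), and the Rap1 exchange factor Rapgef5 at 160, 84.2, 56.9 and 46.7 CPM (-1.19, edgeR adjusted p = 0.0133). In ECs as a whole Rasip1 was not called (-0.58, edgeR adjusted p = 0.0949).

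The genes most like the members were sought by Pearson's r of log2(CPM + 10) over 60 points (15 classes in 4 libraries), which share libraries and differ in depth, so r is a description. Cdh5 was most like Egfl7 (r = 0.99), Eng and Tmem100, and Esam was most like Ramp2, Egfl7 and Tie1. For Cldn5 the nearest were Ramp2, Cdh5 and Egfl7. These are genes of general endothelium, as are Icam2 (r = 0.95) and Hdac7, which came first for Pecam1 with Fendrr. Jam2 stood nearest to Ackr3 (r = 0.97), Gpr182 and Pde3a, and Tjp1 to Adgrf5 (r = 0.99), Galnt18 and Nfib. For Ocln the nearest were Bcam (r = 0.95), Cyb561 and Gdpd1.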

How the data were processed

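The authors dissociated whole lungs, captured single cells on the 10x Genomics platform and counted reads with Cell Ranger 3.1.0 against mm10 per the labels. The deposited values were raw UMI counts per gene and cell, with no normalization, in 1 matrix (500 UMIs and 300 genes at the least per cell). Filters and annotation version were not given in the sources used here, and no cell annotation was used, so cell names were rebuilt here and can differ from those of the study for that reason.

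Cells were clustered in Seurat 5.3.0 (2000 variable genes, CCA alignment, 30 dimensions, resolution 0.8; ECs again with 20 dimensions, resolution 0.6) and named from marker lists. The members, the partner genes, Erg and sex-linked genes were left out of the clustering genes. For the second clustering of ECs, genes called between WT and ERG CKO in a first edgeR test of all ECs were left out as well. The subtype names of ECs therefore rest on the remaining genes. Scrublet called 60 cells (0.641%) doublets, which were kept. Counts were summed per library and class and tested with edgeR 4.0.16 in R 4.3.3 (quasi-likelihood, TMM, filterByExpr) where each library had 20 cells, with the SE as the size of the log2 fold change divided by the square root of F. Named were the 8 members, Erg, and of each partner list the genes called in a tested class. The plan also held the 2 largest changes of each list. Those not called are mostly not given above, such as Ptprb (-0.48), Cdh2 (2.64) and Cdh1 (3.33) in ECs on the log2 scale. DESeq2 1.42.0 and further settings were alternatives. Methods were tested on simulated data. Members and lists were chosen with earlier results of these data known. The likeness of other genes to F11r is not reported here.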

Additional observations from a re-analysis of the deposited data

Results flagged for a closer look

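The genotype difference was not the same in aCap and gCap ECs for 3 junction genes, by edgeR's test of the interaction. The difference of the log2 fold changes, aCap minus gCap ECs, was -0.47 for Cdh5, -0.88 for Cldn5 and -0.90 for Esam. For Cdh5 the call was lost without WT replicate 1 (-0.42, edgeR adjusted p = 0.109) and without ERG CKO replicate 2 (-0.30, edgeR adjusted p = 0.546). The aCap markers fell in the same cells, and their part in these values was not tested.

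The genotype difference was also not the same in epithelium and ECs for 3 genes by the same test. The difference, epithelium minus ECs, was 1.33 for Cdh5, 1.43 for Cldn5 and 1.32 for Pecam1 on the log2 scale. None of the 3 was called without WT replicate 1 (edgeR adjusted p = 0.221 to 0.418) or without WT replicate 2 (edgeR adjusted p = 0.341 to 0.532), and Cdh5 and Pecam1 were not called without doublets (edgeR adjusted p = 0.0529 for both). EC markers stood at 5.76% and 5.39% of their EC level in WT epithelium and at 16.4% and 13.2% in ERG CKO epithelium by median, and the part of endothelial RNA in these values was not tested.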

How the results depend on the processing

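Cdh5, Cldn5 and Esam were called lower in aCap ECs in all 14 alternatives that could be run, with log2 fold changes of -0.78 to -0.62, -0.95 to -0.80 and -1.35 to -1.03. Leaving out doublets and EC resolutions 0.3 and 1.0 held the same numbers of aCap ECs as the main setting (43, 72, 107 and 101). These alternatives thus repeat the main test and are no further check, and such repeats also enter the 881 values below. With 2 mice per group, small subtypes and few UMIs of Ocln, Jam2 and F11r, changes in these genes could be missed. Clustering without alignment left too few cells for a test in aCap ECs, vein ECs and epithelium, as did cells with at most 10% mitochondrial UMIs in vein ECs, thinning in epithelium and leaving out the ERG CKO-led cluster in aCap ECs. That cluster was left out as an alternative chosen after seeing the data. Of 881 values recomputed under alternatives, 784 kept their direction and side of the threshold, or stayed within 1.5 times for a count. The causes of the shifts below were not tested.

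Genes called were 319 in ECs, 1121 there when low counts were not filtered, 151 with thinned cells and 37 without the ERG CKO-led cluster. In gCap ECs 355 became 803 with no filter, 219 with DESeq2, 107 thinned, 3 with no alignment, 174 at EC resolution 1.0 and 6 without that cluster. In aCap ECs 748 became 336 with DESeq2 and 220 thinned. In vein ECs 9 became 86 with no filter, 3 with DESeq2 and 0 thinned. In epithelium 0 became 287 with no filter, with 2 members (Cldn5 and Pecam1), and 23 with DESeq2. For epithelium against ECs 193 became 357 with no filter, and 1 member was called without doublets.

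With the replicate block, ECs had 1071 genes and 2 members called (Esam at -0.40 and Jam2 at -0.45 on the log2 scale, edgeR adjusted p = 0.0343 and 0.0283), gCap ECs 1088 and 0, aCap ECs 1024 and 3, vein ECs 66 and 0 and epithelium 4 and 0. Same-numbered libraries deviated together with r = 0.31 over 10700 genes, but 2 pairs do not show that the numbers pair the mice beyond sex. By Xist and Ddx3y, each number held mice of 1 sex, so the block also separates the sexes. The block was not run for the interactions, which hold the library as a block.

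With 1 library left out, genes called ranged from 246 to 636 in ECs, 297 to 733 in gCap ECs, 590 to 750 in aCap ECs, 17 to 198 in vein ECs, 18 to 84 in epithelium, 455 to 552 for aCap against gCap ECs and 106 to 468 for epithelium against ECs. Members called ranged from 0 to 1 in ECs, vein ECs and epithelium, 2 to 3 for aCap against gCap ECs and 0 to 3 for epithelium against ECs. The lone library left in a group is assumed to vary like the other group.

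Signs turned only among uncalled values. With 1 library left out, log2 fold changes ran from -0.016 to 0.049 for Tjp1, -0.11 to 0.25 for Erg and -0.028 to 0.28 for F11r in ECs, -0.11 to 0.089 for Cldn5, -0.48 to 0.11 for Ocln and -0.0003 to 0.25 for F11r in gCap ECs, -0.32 to 0.25 for Tjp1, -0.15 to 0.55 for Jam2 and -0.067 to 0.38 for F11r in aCap ECs, -1.59 to 0.24 for F11r, -0.053 to 0.12 for Cdh5, -0.038 to 0.21 for Pecam1 and -0.061 to 0.45 for Tjp1 in vein ECs, and -0.0022 to 0.64 for Esam in epithelium. For aCap against gCap ECs they ran from -0.37 to 0.22 for Tjp1, -0.91 to 0.16 for Ocln and -0.059 to 0.14 for F11r. Thinned, Tjp1 was at -0.0016 in ECs, -0.0125 in gCap ECs, 0.64 in aCap ECs and -0.28 in vein ECs, Cldn5 at 0.0095 in gCap ECs and Esam at 0.049 in vein ECs. Without the ERG CKO-led cluster, Tjp1 was at -0.0068 and Jam2 at 0.28 in ECs and Cldn5 at 0.16 and Jam2 at 0.20 in gCap ECs. With no alignment Cldn5 was at 0.17 and Jam2 at 0.31 in gCap ECs, at EC resolution 1.0 Cldn5 was at 0.082 there, and with DESeq2 Cdh5 was at -0.0019 in vein ECs.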
